A study of Danio rerio with 2 samples.

Results

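The genomic regions described here are those of zebrafish (Danio rerio) in which 2 libraries of sorted spinal neurons each listed at least 1 chromosome span on 2 or more rows. There were 965 such regions among 23006 with rows of both libraries and 46045 in all. Many genes give rise to several messenger RNAs that begin and end at the same positions but differ in which internal exons they keep. Such alternative splicing is common in neurons, where it changes ion channels, adhesion molecules and RNA-binding proteins, and the Elavl family, to which HuC belongs, is among its regulators. When transcripts are assembled from short reads, models of this kind appear as several entries on a single span, each with its own estimated level. The deposited rows hold a span and a level in FPKM (fragments per kilobase, corrected for how many fragments a library mapped), with no gene name, transcript identifier or exon structure. Whether rows of a span are splice isoforms of a gene therefore could not be checked, and they are called rows of a repeated span below.

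The libraries were made at 20 hours post fertilization from tail tissue cut off at somite 3. The olig2+ subpopulation carried the Gal4 driver 1020st and is called the 1020 library. The panneuronal population carried a HuC driver and is called the HuC library. In both, fluorescent cell bodies were sorted and polyA-selected RNA was sequenced. Olig2 is a transcription factor that specifies motor neurons and oligodendrocytes, and HuC (Elavl3) binds RNA in neurons that have left the cell cycle. The genotype of the reporter, the number of embryos pooled and the purity of each sort are not stated in the labels, and neither label could be checked against marker genes because rows carry no names. There was 1 library per population, so no difference between them could be set against replicate error and none is tested.

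Rows of at least 300 bp and at most 200000 FPKM were merged into regions wherever rows of either library overlapped by 1 bp or more. Positions are on the Zv9 build, counted from 1, and the gene, exon or strand at a position was not analysed here. A repeated span was present in both libraries in 4.19% of the shared regions, those holding rows of both, and these 965 are the members. A repeated span was listed in the 1020 library only in 1338 other shared regions, and in the HuC library only in 1093. The 1020 file held 2448 repeated spans on 5226 rows and the HuC file 2135 on 4519 rows, none of them shorter than 300 bp. Depth was estimated from the FPKM of short rows, taking the lowest recurring value of a span as 10 fragments. On that assumption it was 38195710 fragments in 1020 and 21878344 in HuC, and a different true value would rescale both. At these depths 1 FPKM on a transcript with an effective length of 1 kb stood for 38.2 fragments in 1020 and 21.9 in HuC. Transcript lengths inside a repeated span are not listed, so the counting error of a single row is unknown.

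The members were long and well expressed. Their regions ran from 960 bp to 477314 bp, with a median of 37422 bp, against a median of 7598 bp over the 22655 shared regions at 1 FPKM or above in either library (the counted regions, which include every member). Their median summed level was 16.5 FPKM in 1020 and 14.8 FPKM in HuC, against 5.02 FPKM in each over all counted regions. Members hold 2 or more rows in each library by rule, which 40.5% of counted regions did in 1020 and 38.6% in HuC. Part of the length and level may come from that rule, which was not tested. Counted regions with a repeated span in 1020 only or in HuC only were also long, with medians of 25311 and 26293 bp. Together the members carried 7.01% of the summed FPKM of counted regions in 1020 and 6.29% in HuC. The share of counted regions that were members was 0.0459% below a mean of 2 FPKM, 4.50% between 5 and 10 FPKM and 11.0% between 50 and 100 FPKM. Above that it was lower, at 8.55% between 100 and 500 FPKM and 6.14% (exact 95% binomial interval 2.50 to 12.2%) from 500 FPKM upward. By span it was 0.0330% below 1000 bp, 5.44% between 10000 and 30000 bp and 15.7% from 100000 bp upward. Span and level were not separated from each other here.

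**Figure D1:**
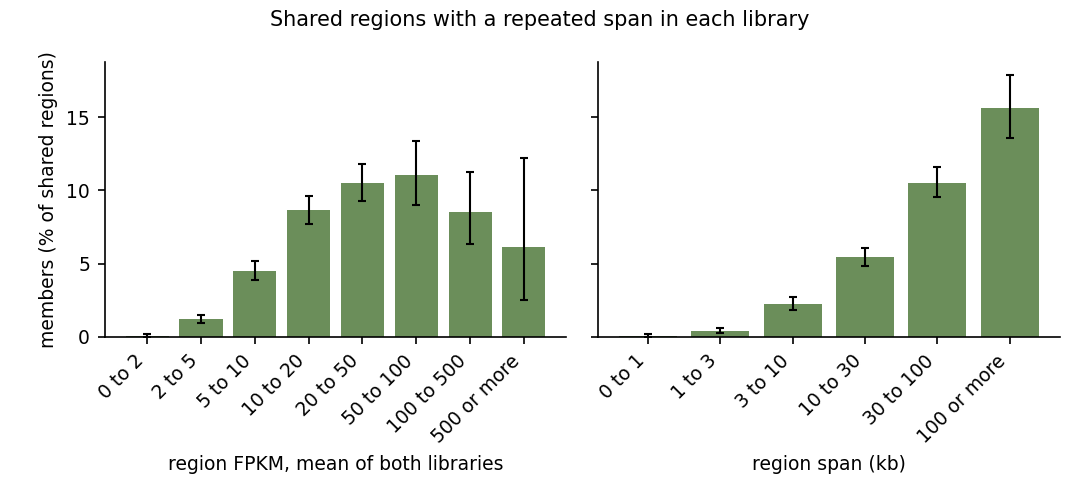
Share of counted shared regions (listed in both libraries, 1 FPKM or more in at least 1) that hold a repeated span in each library, by mean region FPKM (left) and region span in kb (right). Bars are percentages and error bars exact 95% binomial intervals over regions; the share is 0.0459% below 2 FPKM and 15.7% at 100 kb or more.

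Members lay on 25 chromosomes and on unplaced sequences. Chromosome 1 held 55 members among 978 counted regions (5.62%), chromosome 20 held 51 of 908 (5.62%) and chromosome 2 held 55 of 1003 (5.48%). The lowest shares were on unplaced sequences, with 19 of 776 (2.45%), and on chromosome 4, with 26 of 1044 (2.49%). The exact 95% interval over regions was 4.26 to 7.26% on chromosome 1 and 1.63 to 3.63% on chromosome 4, and these intervals did not overlap. All chromosomes were inspected for these extremes, so the gap between them is a description.

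Most repeated spans held 2 rows. In each region and library the repeated span with the highest summed FPKM was taken as the chief span. It had 2 rows in 785 members in 1020 and 819 in HuC, 3 rows in 161 and 128, 4 rows in 16 and 16, and 5 rows in 3 and 2. No span of either file had more than 5 rows. A second repeated span in the same region was rare, with 935 members in 1020 and 933 in HuC holding 1 only. Both libraries gave the same number of rows in 754 members, with 2 rows in both in 701 and 3 rows in both in 50. The 1020 library listed more rows in 122 members and the HuC library in 89. The 1020 library was the deeper one, and the part of depth in this difference was not tested.

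The repeated spans held most of the summed FPKM of the typical member. Their median share of the region's summed FPKM was 80.8% in 1020 and 81.0% in HuC, and they were the whole of it in 415 and 431 members. By rule at least 2 rows of a member lie on a repeated span, and the median number of rows was 3 in each library. A high share was thus partly fixed by the rule. In 247 members in 1020 and 244 in HuC the repeated spans held less than 50%. The highest single row of the region lay on a repeated span in 727 members in 1020 and 701 in HuC. Other rows inside the members numbered 1786 in 1020, with a median span of 869 bp, and 1503 in HuC, with a median of 1502 bp.

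The chief spans of the libraries were close to each other but not identical. No member had the same repeated span, base for base, in both libraries. The starts differed by a median of 105 bp and the ends by 111 bp, and the overlap covered a median of 97.8% of the joint length. The starts were identical in 10 members and the ends in 12. Starts lay more than 1000 bp apart in 221 members and ends in 249. In 12 members the chief spans did not overlap at all, so the split of FPKM there concerns different stretches of one region. Both ends lay within 200 bp in 358 members, which are called members with close ends.

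The listed split of FPKM among rows had a lower edge. The leading row, the one with the highest FPKM, held a median of 64.4% of its chief span in 1020 and 65.1% in HuC. The middle part of the distribution, from the 25th to the 75th percentile, ran from 54.6 to 76.4% in 1020 and from 56.0 to 76.1% in HuC. The highest share was 89.9% in 1020 and 90.0489% in HuC. The single member at 90% or more lay on chromosome 5 from 39347216 to 39359781, and it is named for that after its value was seen. Its HuC rows were at 3.42 and 0.378 FPKM, while its 1020 rows were at 3.19 and 2.71 FPKM, a leading share of 54.0%. That member was thus strongly led in HuC and almost evenly split in 1020.

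On the repeated spans of the members, the weakest row stood at 11.2% of its leading row in 1020 and 11.1% in HuC. Over all repeated spans of the files the weakest stood at 10.1% and 10.2%. No row of a repeated span lay under 10%, and 36 rows of members in 1020 and 42 in HuC lay between 10 and 15%. Between 15 and 20% lay 76 and 85, so the members' rows became fewer towards the edge. The edge was not seen in the other rows of the members, set against the highest row of their region. Under 10% of that highest row lay 285 of 1786 such rows (16.0%) in 1020 and 221 of 1503 (14.7%) in HuC. That reference need not lie on the same span as the row, so these measures are unlike. They cannot show whether the edge is particular to repeated spans. Spans led more strongly than this edge allows are thus not represented among the members. The labels do not say whether weaker rows were left out before deposit, so the edge, and with it the highest leading shares, cannot be read as a property of the transcripts.

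**Figure D2:**
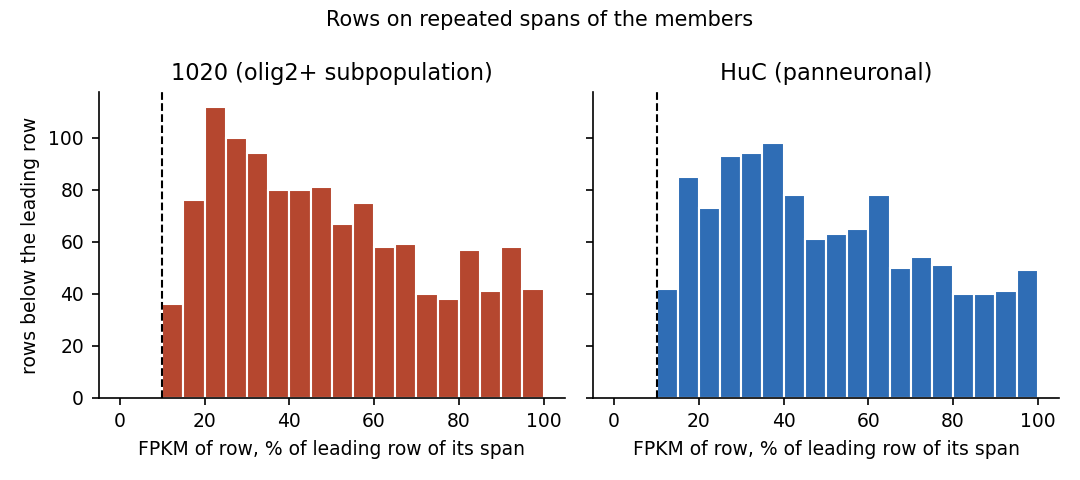
FPKM of each row that is not the leading row of its repeated span, as a percentage of the leading row, for the members in 1020 (left) and HuC (right). Bars count rows in steps of 5 percentage points. The dashed line marks 10%, below which no row of a repeated span is listed in either library.

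Leading shares under 60% were common in both libraries, though with 3 or more rows such a share need not mean an even split. It was under 60% in 382 members in 1020 and 354 in HuC, and in both at once in 174. Among the 701 members with 2 rows in both libraries, where it does mean a near-even split, the counts were 207 and 194. The leading share was 80% or more in 161 and 154 members, and in both at once in 50. With 2 rows the leading row held a median of 68.7% in 1020 and 68.3% in HuC. With 3 rows the median shares in order were 51.0, 29.5 and 17.98% in 1020 and 50.4, 30.9 and 18.02% in HuC. With 4 rows the leading row held 37.1% in 1020 and 35.0% in HuC. The leading share differed little with level: its median was 64.8% for 239 chief spans below 5 FPKM in 1020, 63.9% for 461 between 5 and 20 FPKM and 64.5% for 234 between 20 and 100 FPKM. In HuC the same medians were 66.8, 64.5 and 66.0%. From 100 FPKM upward it was 69.9% for 31 spans in 1020 and 61.6% for 29 in HuC.

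The 5 members with the highest chief-span FPKM, by the mean of the libraries, show how such splits look row by row. The most abundant lay on chromosome 8 from 49300077 to 49308240. Its 2 rows were at 363 and 304 FPKM in 1020 and at 580 and 487 FPKM in HuC. The leading row held 54.4% in each library, although the sum was 666 FPKM in 1020 and 1068 FPKM in HuC. On chromosome 4, from 2215581 to 2241318, the rows were at 475 and 173 FPKM in 1020 and at 417 and 178 FPKM in HuC. Here both the sums and the splits were close, with leading shares of 73.3% and 70.1%.

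On chromosome 16, from 11935802 to 11944552, the rows were at 576 and 232 FPKM in 1020 and at 230.4 and 88.1 FPKM in HuC. The sum was higher in 1020, with a log2 ratio of (FPKM + 1), 1020 over HuC, of 1.34. The leading shares were nevertheless 71.3% and 72.3%. On chromosome 10, from 42188072 to 42192720, the rows were at 234 and 233 FPKM in 1020 and at 172 and 169 FPKM in HuC. This span was divided almost equally in both libraries, with leading shares of 50.2% and 50.4%.

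The fifth of these members was the exception. On chromosome 22, from 39556060 to 39572956, the 1020 library listed 2 rows at 288 and 54.6 FPKM. The HuC library listed 3 rows at 353, 294 and 142 FPKM on a span whose ends lay 31 and 5 bp away. The leading share was 84.1% in 1020 and 44.7% in HuC, and the summed level was higher in HuC with a log2 ratio of -1.20. Since rows carry no identifier, it is unknown which HuC rows match those of 1020.

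**Figure D3:**
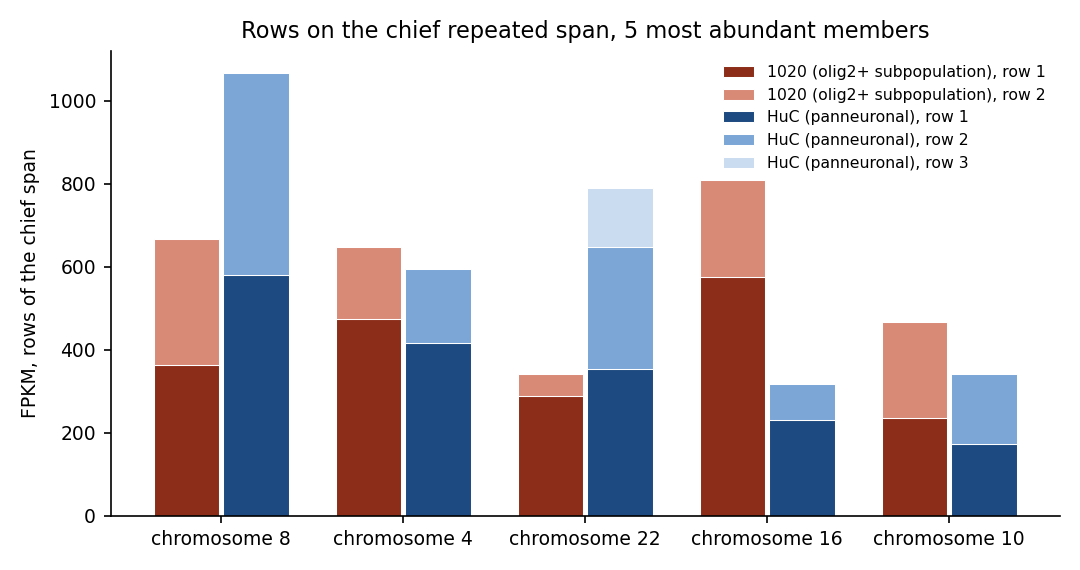
FPKM of each row on the chief repeated span of the 5 most abundant members, stacked from the leading row upward, in the 1020 library (red) and the HuC library (blue). In 4 of the 5 the leading shares of the libraries lie within 3.203 percentage points, while on chromosome 22 the 1020 library has 2 rows and the HuC library 3.

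How far the split matched between the libraries was compared over all members through the leading share, because single rows cannot be paired. The absolute difference had a median of 9.91 percentage points, and it was 5 points or less in 270 members (28.0%). Over all members neither library was more strongly led, with the share higher in 1020 in 484 and higher in HuC in 481. The balance differed by subset. With close ends and 2 rows in both it was higher in 1020 in 146 members and in HuC in 108. With unequal row numbers it was higher in 1020 in 96 and in HuC in 115. Among the 956 members at 1 FPKM or more on the chief span in both libraries, the shares lay 20 points or more apart in 208 (21.8%), with 98 higher in 1020 and 110 higher in HuC. A chief span exists only in members, so this measure has no value outside them.

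A measure available elsewhere is the share of the highest row among all rows of a region, which exists in the 6168 shared regions with 2 or more rows in each library. Of these, 29.4% differed by 20 points or more between the libraries, 14% higher in 1020 and 15.4% higher in HuC. Among the 965 members 248 did (25.7%), with 111 higher in 1020 and 137 higher in HuC. The median difference was 10.8 points in the members and 12.6 points in the 5203 other such regions. The members' count was thus close to the background, and nothing particular to them is read from it.

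The splits lay closer where the row numbers matched, and less clearly so where the ends matched. With 2 rows in both libraries the median difference was 8.59 points over 701 members, and with unequal row numbers it was 16.6 points over 211. A leading share can be lower with more rows by arithmetic alone, so unequal row numbers widen the difference by construction. With an end more than 1000 bp apart the median was 12.1 points over 379 members. With close ends and 2 rows in both it was 7.55 points over 254 members, of which 36 (14.2%) differed by 20 points or more. Across those 254 regions the correlation of the leading shares was 0.43 by both Pearson's r and Spearman's rho, against 0.29 and 0.28 over all 965. Over the 701 members with 2 rows in both it was 0.25 by both measures. These correlations are across regions of 1 pair of libraries, each with its own depth and with processing in common, and they carry no p-value.

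Splits were also compared by the level of the chief span in the lower library, and the median difference was smallest at the highest level. Over all members the median difference was 11.9 points below 5 FPKM and 9.52 points between 5 and 20 FPKM. It was 8.15 points between 20 and 50 FPKM and 7.57 points from 50 FPKM upward. In these classes 26.9, 21.0, 17.3 and 10.5% of members lay 20 points or more apart. With close ends and 2 rows in both these shares were 22.9, 14.4, 12.5 and 6.45%, but the medians were not in steady order. In both sets the 95% intervals of the medians overlap between neighbouring classes and between the lowest and the highest class. Over all members they were 10.3 to 14.1 points below 5 FPKM and 4.02 to 11.4 points from 50 FPKM upward. The order of the medians is thus a description. Among members with close ends and 2 rows in both, the median difference was 7.64 points for 35 members below 5 FPKM in the lower library. It was 8.23 points for 132 members between 5 and 20 FPKM and 6.22 points for 56 members between 20 and 50 FPKM. For the 31 members at 50 FPKM or more in both libraries it was 3.17 points (exact 95% order interval 1.80 to 8.86 over regions), with Pearson's r at 0.71 and Spearman's rho at 0.70, and 16 of them lay within 5 points. In these 31 the leading share was higher in 1020 in 21 and higher in HuC in 10. Higher FPKM rests on more fragments, and the part of counting error in this order was not tested. The subset by close ends and these level classes were chosen after the values were seen; the restriction to 2 rows in both was planned.

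**Figure D4:**
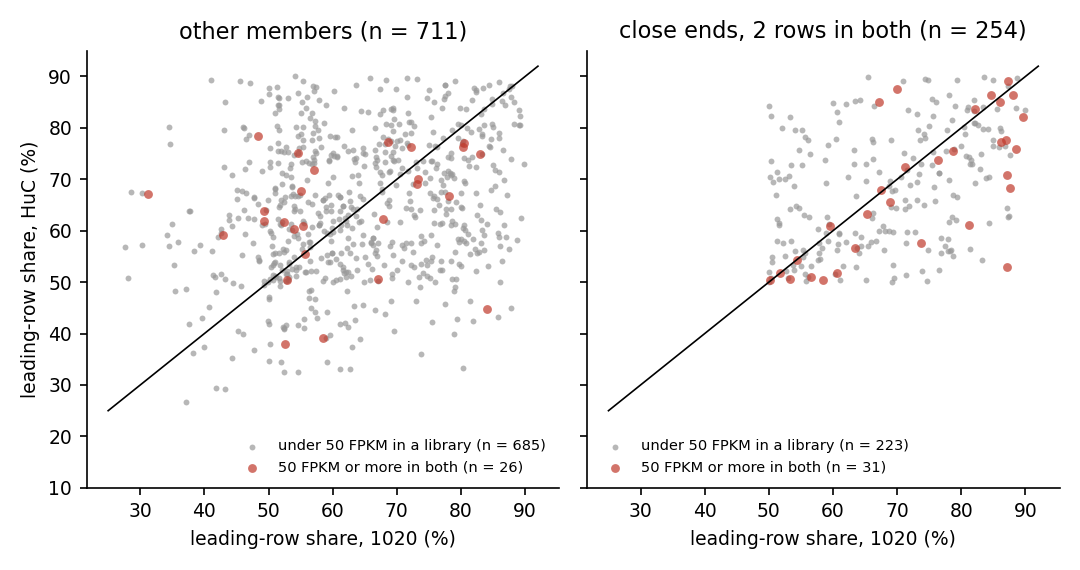
Leading-row share of the chief span in the 1020 library (x axis, %) and the HuC library (y axis, %), 1 point per member, with the line of equal shares. The right panel holds the 254 members with ends within 200 bp and 2 rows in both, the left panel the other members, and red points have 50 FPKM or more in both libraries; red points on the right lie a median of 3.17 points apart.

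A pair of members from that last subset were singled out after their values were seen, for the widest gap in level and the widest gap in split. On chromosome 16, from 26211566 to 26212938, the rows were at 29.1 and 27.2 FPKM in 1020 and at 209 and 195 FPKM in HuC. The level was far higher in HuC, with a log2 ratio of -2.82, while the leading shares were 51.7% and 51.8%. On chromosome 5, from 58361272 to 58373722, the rows were at 211 and 31.0 FPKM in 1020 and at 30.8 and 27.4 FPKM in HuC. There the leading share was 87.2% in 1020 and 52.9% in HuC. The HuC library also listed a row at 177 FPKM from the same start, on a shorter span of 11692 bp, which brought its region sum to 235 FPKM against 242 FPKM in 1020. The widest gap of the 31 thus came with a HuC row that was set apart by its end.

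Over all members, differences in the split of the chief span and in the summed level of the whole region showed little relation. The level includes rows outside the chief span, and the level of the chief span alone was not compared in this way. The median absolute difference in leading share was 10.03 points in the 184 members at least 2-fold apart in summed FPKM and 9.84 points in the other 781. Across the 965 regions Pearson's r between the signed difference in share and the log2 ratio was -0.037, and Spearman's rho was -0.051.

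Some members had far more strongly led spans in one library. They were ranked by the difference in leading share among the 641 members with a chief span at 5 FPKM or more in both libraries. The largest excess in 1020 lay on chromosome 5 from 36741601 to 36818620. There the 1020 rows were at 10.2 and 2.50 FPKM and the HuC rows at 2.59, 2.07, 1.86 and 1.27 FPKM, for leading shares of 80.3% and 33.3%. With all rows of the region counted the gap was 7.41 points, since 1020 also listed a row of 308 bp at 8.06 FPKM. On chromosome 13, from 15534566 to 15621796, the 1020 rows were at 12.7 and 1.77 FPKM and the HuC rows at 5.73, 3.35, 1.94 and 1.75 FPKM. The leading shares of 87.8% and 44.9% changed order over all rows (-15.8 points), because HuC listed a row of 528 bp at 22.5 FPKM there.

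The next 2 kept a wide gap. On chromosome 2, from 14948988 to 15018313, the 1020 rows were at 4.57 and 0.754 FPKM and the HuC rows at 3.32, 2.96 and 1.403 FPKM, both spans starting at the same base. On chromosome 1, from 13267551 to 13288433, the 1020 rows were at 37.7 and 8.35 FPKM and the HuC rows at 21.6, 20.4 and 8.96 FPKM. The summed level of the chromosome 1 span was similar, at 46.1 FPKM in 1020 and 50.9 FPKM in HuC, and the leading share was 81.9% against 42.5%. The chromosome 22 region of the most abundant members completed these 5. In all 5 the chief span had more rows in HuC than in 1020.

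The largest excess in HuC lay on chromosome 8 from 20740493 to 20768653, where the ends of the chief spans were 1 and 24 bp apart. The HuC rows were at 5.87 and 0.709 FPKM and the 1020 rows at 3.14, 2.76 and 1.77 FPKM, for leading shares of 89.2% in HuC and 41.0% in 1020. On chromosome 14, from 34255561 to 34272304, the HuC rows were at 21.5 and 5.35 FPKM and the 1020 rows at 12.1, 11.5 and 11.4 FPKM. The 1020 rows there were thus nearly equal, while the HuC span was led at 80.1%. On chromosome 24, from 21252152 to 21267060, the 1020 library listed 4 rows at 8.09, 8.02, 6.49 and 5.71 FPKM and the HuC library 2 rows at 13.0 and 6.23 FPKM. The HuC library also listed a row of 6299 bp at 9.26 FPKM there, and with all rows counted the gap of -39.0 points was -17.02 points. With that row the region sums were alike, at 28.3 FPKM in 1020 and 28.5 FPKM in HuC.

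In the other 2 of these 5 the chief spans covered different lengths. On chromosome 21, from 8734623 to 8909155, the 1020 span was 174501 bp with rows at 3.83, 3.11, 2.27 and 1.83 FPKM. The HuC span was 93379 bp with rows at 4.77 and 1.43 FPKM, beside a separate HuC row of 66744 bp at 7.48 FPKM. The gap there was -42.2 points on the chief spans and -37.2 points with all rows counted. On chromosome 9, from 29903924 to 29972667, the 1020 span was 68597 bp with rows at 21.3, 12.7 and 11.3 FPKM. The HuC span was 37465 bp with rows at 26.4 and 3.39 FPKM, beside a separate HuC row of 29349 bp at 37.4 FPKM. With all rows counted, the gap of -41.6 points on chromosome 9 was -8.59 points. In all 5 the chief span had more rows in 1020, so each of the 10 gaps named for either direction came with unequal row numbers. A leading share cannot fall as low with 2 rows as with more, so this pairing was partly fixed by arithmetic.

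The members with the most rows on a repeated span reached 5. On chromosome 11, from 15300956 to 15347185, the 1020 rows were at 44.96, 36.7, 28.1, 19.04 and 15.2 FPKM. The HuC library had 2 rows at 46.0 and 22.6 FPKM on its chief span and another row at 67.7 FPKM on a span of 46210 bp, against 46204 bp for the chief span. The region sums were 144 FPKM in 1020 and 136 FPKM in HuC. A shift of a few bases at the start thus set the highest HuC row apart from the repeated span. On chromosome 9, from 39837627 to 40046025, the 1020 rows were at 13.2, 6.73, 6.51, 6.49 and 4.55 FPKM and the HuC rows at 5.61 and 4.92 FPKM.

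On chromosome 7, from 11382949 to 11691378, a span of 308215 bp held 5 rows in 1020 at 4.42, 3.55, 2.88, 2.82 and 2.34 FPKM. The HuC span of 308409 bp held 3 rows at 6.27, 3.08 and 1.67 FPKM. These rows were a small part of that region, whose sums over 26 and 10 rows were 67.9 FPKM in 1020 and 54.6 FPKM in HuC. On chromosome 12, from 25281814 to 25354340, the HuC library listed 5 rows at 3.798, 3.63, 3.18, 2.13 and 1.47 FPKM and the 1020 library 4 rows at 4.42, 3.61, 2.16 and 1.73 FPKM. Both libraries thus divided this span finely, with leading shares of 26.8% in HuC and 37.1% in 1020. On chromosome 9, from 24266108 to 24275998, the HuC library listed 5 rows at 3.299, 1.97, 1.88, 1.71 and 1.31 FPKM. The repeated 1020 rows there, at 3.16 and 2.86 FPKM, lay on a shorter span of 4071 bp against 8343 bp. The highest 1020 row of the region was a separate one of 7150 bp at 12.9 FPKM. It ran from 24268849 to 24275998 and overlapped the HuC span.

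The summed level of the members was compared through the log2 ratio of (FPKM + 1), which understates the change of low regions. The median was 0.10 in the members and -0.04 over the counted regions, with SDs across regions of 0.80 and 0.83. At least 2-fold higher in 1020 were 107 members (11.1%), where the background was 8.83%. At least 2-fold higher in HuC were 77 members (7.98%), where the background was 10.6%. At 4-fold the counts were 7 higher in 1020 (0.725%, background 0.945%) and 14 higher in HuC (1.45%, background 1.37%). Restricted to regions reaching 5 FPKM in either library, the 1020 share was 11.6% in the members and 12.8% over all, and the HuC share 8.24% and 14.1%. With a pseudocount of 5 the counts were 63 (6.53%, against 3.46% over all) and 42 (4.35%, against 4.03%). With no span minimum the 1020 count was 211 (21.9%, against 14.5% over all). Neither the higher 1020 share nor the lower HuC share of the members held under every setting, so neither is read as particular to them.

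**Figure D5:**
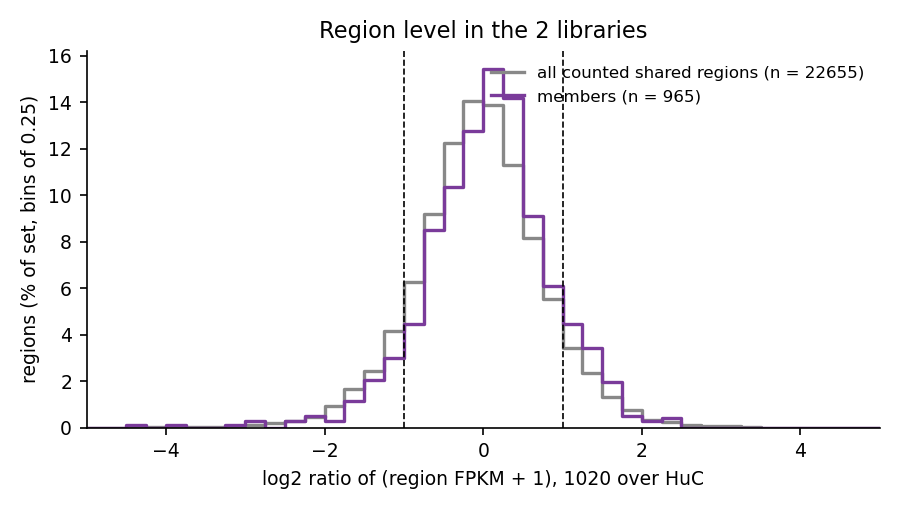
Distribution of the log2 ratio of (region FPKM + 1), 1020 over HuC, for the 965 members (purple) and all 22655 counted shared regions (grey), as percentages of each set in bins of 0.25; the axis is drawn from -5 to 5. Dashed lines mark 2-fold; 11.1% of members lie at or above the right line and 7.98% at or below the left one.

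The members with the highest ratios were named among the 910 that reached 5 FPKM in either library. On chromosome 15, from 28034632 to 28119284, the chief rows were at 103 and 27.5 FPKM in 1020 and at 34.1 and 4.18 FPKM in HuC. A 1020 row of 2764 bp at 81.3 FPKM raised the region's log2 ratio to 2.44, and on the repeated spans alone it was 1.75. On chromosome 5, from 27726671 to 27738547, the rows were at 25.02 and 5.93 FPKM in 1020 and at 2.92 and 2.15 FPKM in HuC, a log2 ratio of 2.40. That region held no other row, and its leading share was 80.8% in 1020 and 57.6% in HuC.

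The next of these regions lay on chromosome 4 from 10237366 to 10265573. Its repeated rows were at 21.6, 10.5 and 8.10 FPKM in 1020 and at 5.84 and 2.67 FPKM in HuC. A 1020 row of 310 bp at 8.59 FPKM raised the region's log2 ratio to 2.39, and on the repeated spans alone it was 2.11. On chromosome 1, from 12958283 to 13043298, the region sums were 52.1 FPKM in 1020 and 10.8 FPKM in HuC, a log2 ratio of 2.17. On chromosome 2, from 37151756 to 37163341, the ratio of 2.36 came from a 1020 row of 2906 bp at 15.8 FPKM. The repeated spans there were at 1.79 FPKM in 1020 and 2.63 FPKM in HuC, so on them alone the direction was the opposite, with a log2 ratio of -0.38.

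Among the members with the lowest ratios, the region on chromosome 5 from 71692763 to 71699878 was higher in HuC in every kind of row. Its repeated rows were at 12.1, 9.71 and 8.10 FPKM in HuC and at 0.860, 0.660 and 0.378 FPKM in 1020. A separate row was at 93.6 FPKM in HuC and at 5.25 FPKM in 1020, and the region's log2 ratio was -3.93. The shares of the 3 repeated rows were 40.5, 32.4 and 27.1% in HuC and 45.3, 34.8 and 19.9% in 1020. The chief spans were unlike, at 4667 bp in HuC and 2919 bp in 1020. Another of these regions lay on chromosome 5 from 43899069 to 43915915. Its repeated rows were at 40.3 and 20.7 FPKM in HuC and at 3.42, 2.55 and 1.63 FPKM in 1020. Separate rows were at 45.7 FPKM in HuC, on 11666 bp, and at 3.69 FPKM in 1020, on 1256 bp. The log2 ratio was -3.13 for the region and -2.85 on the repeated spans.

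On chromosome 1, from 4393905 to 4432223, the repeated rows were at 122 and 104 FPKM in HuC and 22.6 and 22.2 FPKM in 1020. The highest HuC row of the region was a separate one of 9133 bp at 131 FPKM, from the same start. The log2 ratio was -2.97 for the region and -2.31 on the repeated spans, and the leading shares were 53.9% in HuC and 50.4% in 1020. This span too was split nearly evenly in both libraries. On chromosome 7, from 75091476 to 75121829, the lowest ratio of -4.37 rested largely on a HuC row of 332 bp at 32.1 FPKM. Its repeated spans were at 2.63 FPKM in HuC and 0.458 FPKM in 1020, a log2 ratio of -1.32.

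On chromosome 6, from 13099636 to 13116067, the region and its repeated spans went opposite ways. The repeated rows were at 58.5 and 25.03 FPKM in 1020 and at 4.65 and 1.36 FPKM in HuC, a log2 ratio of 3.59. A HuC row of 4888 bp at 619 FPKM set the region's ratio at -2.90. That row, from 13111131 to 13116018, lay within the 1020 span but outside the HuC one. The HuC library thus listed this region in separate pieces, and the 1020 library as a whole.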

How the data were processed

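RNA of 2 sorted populations was sequenced, 1 library each. The authors deposited FPKM values, 1 per row, with a chromosome span; Cufflinks 2.1.1, Cuffdiff, TopHat 1.4.0 and build Zv9 appear in the submitters' processing notes, with no role stated. Annotation, assembly settings and filters are not given in the sources used. FPKM from separately assembled transcripts depends on which rows were kept, and rows of one span share reads that a model divides among them, so their errors are linked and not listed.

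Rows of 300 bp or more and at most 200000 FPKM (62223 of 70216 in 1020, 47318 of 49173 in HuC) were merged at 1 bp overlap. The value 1 was added to starts, which count from 0. Members and measures were chosen with earlier results of these data known. Depth came from rows of 300 to 600 bp, taking the lowest recurring FPKM of a span as 10 fragments. Span lengths were kept where at least 60% of values were then whole within 0.01 fragments. Among those kept, 85.3% and 84.3% of 16113 and 7318 values were whole, so these percentages follow a selection. They do not test the value of 10, which the simulated rows also assumed. Named regions are the 5 highest in chief-span FPKM, the 5 with most rows, the 5 widest share gaps and the 5 most extreme ratios per direction, 29 in all, plus 3 chosen after their values were seen; no member repeats an identical span in both libraries. No Zv9 genome or annotation was used, so genes, exons and sequences were not analysed here. With 1 library per group there was no test. The scripts (Python 3.11.15, pandas 2.3.3, SciPy 1.17.1) were checked on simulated rows. Intervals are exact binomial and cover counting over regions only.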

Additional observations from a re-analysis of the deposited data

How the results depend on the processing

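Of 104 recomputed counts and medians, 74 stayed within 1.5 times or, for medians, within the exact 95% binomial order interval. Some of the 74 had little or no room to move, so their number is not a measure of robustness. No repeated span was shorter than 300 bp, and dropping the span minimum left the member count and shares as they were. All 965 members passed the FPKM filter of the ratios, so dropping it changed none of their counts. The 965 members became 62 with 3 or more rows required, and lay between 964 and 1001 under the other settings. With 2 rows in both libraries, the leading share had medians of 69.1% (1020) and 69.2% (HuC), 207 and 194 members were under 60%, and 61 and 62 members had shares 20 points or more higher in 1020 and in HuC. Over all rows of a region the medians were 51.7% and 52.3%, 643 and 610 members were under 60%, and 1 and 3 reached 90%. At a chief-span FPKM of 5 or more in both, 504 and 530 members had 2 rows, 0 reached 90% in HuC, and 55 and 68 had gaps of 20 points. At 20 FPKM or more, 76 and 77 were under 60%, 0 reached 90% in HuC, and gaps numbered 14 and 18. With close ends, chosen after seeing the data, gaps numbered 31 and 39, and 17 and 19 with 2 rows in both as well. These subsets hold fewer members by construction. The counts at least 2-fold apart, 107 and 77, were 63 and 42 with a pseudocount of 5. The 1020 count was 211 with no span minimum, a setting that differs only in adding back rows under 300 bp. Why those rows raised the count was not tested. Of 110 values for named regions 3 reversed: over all rows, -15.8 points on chromosome 13, and on repeated spans alone log2 ratios of -0.38 on chromosome 2 and 3.59 on chromosome 6. With both libraries set to the same summed FPKM the median log2 ratio was 0.23 in members and 0.07 over all. As reported these medians were 0.10 and -0.04. At the same summed FPKM 13.6% and 6.42% of members were 2-fold higher in 1020 and in HuC, against 11.0% and 8.33% over all. No paired analysis was possible because a group holds just 1 library, and no replicate could be left out. HuC was the shallower library, and how far depth set which weak rows were listed was not tested.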

Other observations

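Rows with exactly equal FPKM on one repeated span occurred in 5 members in 1020 and 11 in HuC. The tied rows lay between 0.579 and 6.91 FPKM in 1020 and between 0.627 and 7.19 FPKM in HuC, so no row above these levels was tied. The summed level of the tied spans is not given here. All 5 tied spans in 1020 and 8 of the 11 in HuC had 2 rows, which put their leading share at the lowest value that 2 rows allow. Near-ties were more frequent, with 42 rows in 1020 and 49 in HuC at 95% or more of their leading row without being equal.

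Members with a second repeated span numbered 30 in 1020 and 32 in HuC. The second span carried a median of 56.3% of the FPKM of the chief span in 1020 and 58.9% in HuC. Shared regions with a repeated span in 1020 only had a median of 8.50 FPKM in 1020 and 7.79 FPKM in HuC, and those with one in HuC only had 10.0127 and 8.84 FPKM, levels between the members and the counted regions without a repeated span (4.23 and 4.35 FPKM). The library without the repeated span listed a single row in 496 of 1336 regions in the first case and 333 of 1093 in the second, and several rows on unlike spans in the rest.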
